A study of Mus musculus with 6 samples.

Results

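The respiratory chain of sorted Paneth cells (PCs) was described here through its subunit genes. Members were taken by gene symbol from the protein-coding rows of the count table, using the symbol patterns of complex I (Nduf followed by a, b, c, s or v and a number), complex II (Sdha to Sdhd), complex III (Uqcr), complex IV (Cox4i, Cox5a, Cox5b, Cox6, Cox7, Cox8), ATP synthase (Atp5) and the protein genes of mitochondrial DNA (mt-). Of 55414 rows, 102 were members, 89 of them in the nucleus and 13 in mitochondrial DNA. The nuclear members were 37 of complex I, 4 of complex II, 8 of complex III, 21 of complex IV and 19 of complex V (ATP synthase), and the mitochondrial ones were 7, 0, 1, 3 and 2 in the same order. Ndufa4 and Ndufa4l2, which carry complex I names, were counted with complex IV, where the Ndufa4 protein is now placed. A few subunits have other symbols, among them Cyc1 and Ndufab1, and are given with a separate list.

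Respiratory complexes I to IV pass electrons from NADH and succinate to oxygen. Complexes I, III and IV pump protons across the inner mitochondrial membrane on the way, complex II does not, and complex V uses the gradient to make ATP. Complex II is encoded in the nucleus alone, whereas the other complexes combine nuclear subunits made in the cytosol with subunits encoded in mitochondrial DNA. PCs are secretory cells of the crypt base that are known for high glycolytic activity beside their stem cell neighbours.

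RNA had been sequenced from PCs sorted from the small intestine of 6 mice of strain C57BL/6J, each giving 1 library. All mice were IFNAR1 KO, so PBS controls and TNF-injected mice alike lacked the type I interferon receptor subunit. Of these, 3 mice received PBS and 3 received TNF, and PCs were collected after 15 h. Age, sex, dose and the gate of the sort are not given in the labels.

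The libraries held 12747484 to 17039511 counts, and 16 genes that each passed 1% of some library took 46.5 to 64.7% of them. The member mt-Co1 was among these 16 genes, as it passed 1% in PBS replicate 2. Ifnar1 itself had 61 to 159 counts per library in both groups, and since the deleted part of the gene is not stated, these counts do not check the genotype. The 11 PC markers summed to 319208 to 687719 CPM (counts scaled to library size by the trimmed mean of M-values, TMM). Markers of blood and vessel cells summed to at most 0.391 CPM, with Hbb-bs and Hba-a1 at 0 throughout. The 12 enterocyte markers summed to 394 to 465 CPM in the PBS libraries, to 416 in TNF replicate 1, and to 143 and 106 in TNF replicates 2 and 3. The 5 stem cell markers went the same way, at 2166 to 2663 CPM in PBS, 4159 in TNF replicate 1, and 390 and 407 in the other TNF libraries. TNF replicate 1 did not share the low enterocyte and stem cell marker levels of the other TNF libraries and stood apart from them. Results of the comparison are therefore given with and without TNF replicate 1. That choice was made on expression values of the same data, so calls made without this library depend on it. The part of these markers in any difference between groups was not tested. In bulk RNA, fewer cells of a type and less RNA per cell cannot be told apart.

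The mitochondrially encoded members were read first, because 6 of the 13 had no counts at all. mt-Co2 and mt-Co3 of complex IV, mt-Atp6 and mt-Atp8 of ATP synthase, and mt-Nd3 and mt-Nd4l of complex I were listed at 0 in all 6 libraries. The other 7 were counted in every library, from 668 counts of mt-Nd6 in TNF replicate 3 to 141104 counts of mt-Co1 in PBS replicate 2. The 6 genes at 0 are neighbours: with mt-Co1 before them and mt-Nd4 after them, they fill 1 uninterrupted stretch of the mitochondrial genome.

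In GRCm39, that stretch has a nearly identical copy in the nucleus. Bases 6390 to 11042 of the mitochondrial genome, 28.5% of its 16299 bases, aligned to chr1:24650616-24655269 on the minus strand with 2 mismatches and 1 gap position over 4654 aligned positions, an identity of 99.936%. The first 90 bases of mt-Co2 are printed with the chromosome 1 sequence, because this gene had no counts and the pair has no difference. The stretch around the second mismatch follows, since it marks the only base by which mt-Nd3 and its copy differ. The differing base is in capitals, all are read 5′ to 3′ on the mitochondrial plus strand, and the chromosome 1 lines are the minus strand of the coordinates given.

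mt-Co2, chrM:7013-7102: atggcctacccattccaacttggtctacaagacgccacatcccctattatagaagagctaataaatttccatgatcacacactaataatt
Copy, chr1:24654557-24654646: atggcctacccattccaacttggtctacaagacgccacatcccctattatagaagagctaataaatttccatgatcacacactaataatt
mt-Nd3 and bases before it, chrM:9416-9505: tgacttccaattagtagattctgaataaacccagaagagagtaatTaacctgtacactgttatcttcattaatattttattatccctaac
Copy, chr1:24652154-24652243: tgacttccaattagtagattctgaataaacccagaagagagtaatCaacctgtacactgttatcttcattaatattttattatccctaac

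For contrast, the start of mt-Cytb, which was counted in all libraries and of which no window of 50 bases recurs anywhere else in the genome, is given in the same way.
mt-Cytb, chrM:14145-14234: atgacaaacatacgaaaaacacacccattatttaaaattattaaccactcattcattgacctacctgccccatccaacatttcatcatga

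Across the 13 genes, those at 0 were the ones whose sequence was nearly all shared. Each transcript was divided into overlapping windows of 100 bases, and a window was called shared when the same letters occurred elsewhere in GRCm39 on either strand. For mt-Co2, mt-Co3, mt-Atp6, mt-Atp8 and mt-Nd4l 100% of windows were shared, and for mt-Nd3 98.8%. For the counted genes the share was 0% in mt-Nd1, mt-Nd5, mt-Nd6 and mt-Cytb, 3.20% in mt-Nd2, 30.8% in mt-Co1 and 60.8% in mt-Nd4, the last pair being the genes that the copy enters only in part. The windows were examined after the zeros had been seen. With windows of 50 or 150 bases the same 6 genes were the ones above 98%.

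The 7 annotated pseudogene rows inside the chromosome 1 copy did not hold the missing counts. They ranged from 0 to 9 counts in a library, and their sum over all 7 rows was 3, 13 and 1 in the PBS libraries and 12, 11 and 2 in the TNF libraries. How reads that fit several places were treated is not given in the sources used here, so its part in the zeros was not tested. No level and no response to TNF can be given for the 6 genes, and mt-Co1 and mt-Nd4 are given as counted.

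**Figure D1:**
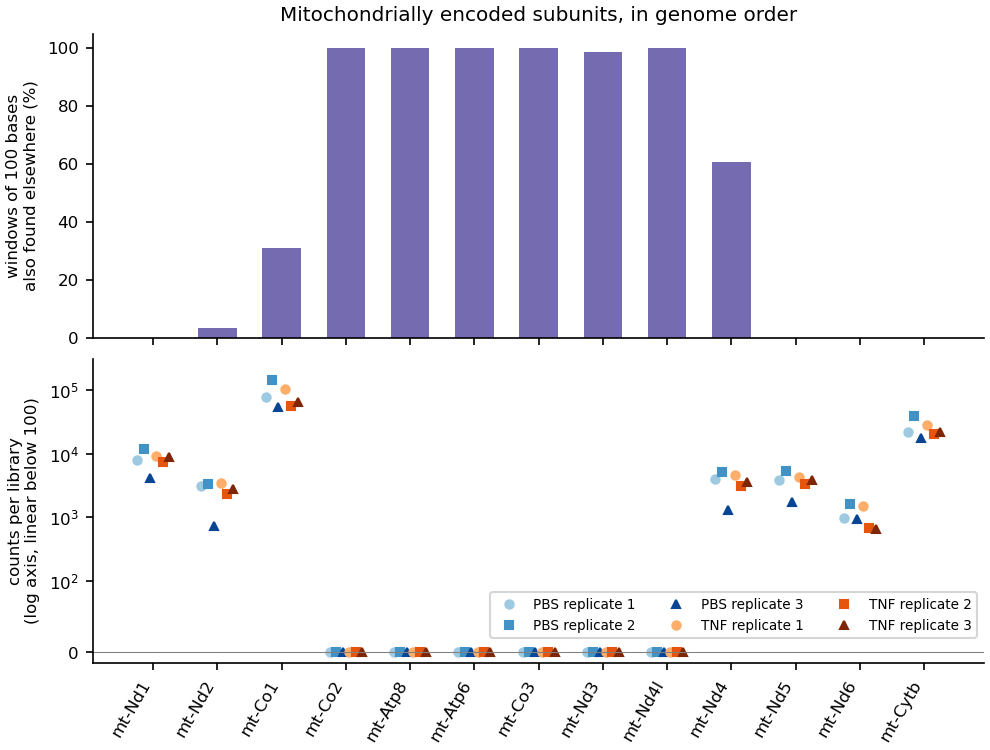
The 13 mitochondrially encoded subunit genes in genome order. Upper panel, the percentage of 100-base windows of each transcript that recur elsewhere in GRCm39; lower panel, counts in each of the 6 libraries on a log axis that is linear below 100. The 6 genes from mt-Co2 to mt-Nd4l combine 98.8 to 100% shared windows with 0 counts in all libraries.

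No nuclear member was shared as fully as the mitochondrial genes without counts, where 98.8 to 100% of windows recurred. The nuclear members therefore hold no case of that extent for comparison. Of the 89 transcripts, 61 had no shared window of 100 bases and 5 had more than 50% shared, namely Atp5mc2 (87.5%), Cox7c (68.3%), Atp5mc1 (65.3%), Ndufs5 (61.8%) and Atp5mg (57.4%). All 5 were counted, at very different levels. Cox7c, a small subunit of complex IV, reached a mean of 151 CPM per kb of transcript, while Ndufs5 and Atp5mg stood at 5.50 and 6.32 CPM per kb. The 3 genes of the membrane ring subunit c encode the same mature protein, and their levels were 131 CPM per kb for Atp5mc3, 53.3 for Atp5mc1 and 19.7 for Atp5mc2. Per kb of unshared windows this order turned, with 183 for Atp5mc1, 182 for Atp5mc2 and 146 for Atp5mc3. For this measure the whole level of a gene was divided by its unshared windows, only 79 in Atp5mc2. Reads were not counted by window. The measure holds only if all reads from shared windows were dropped, which is not known, so the turned order may come from the divisor alone. The counts of members with many shared windows are uncertain.

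On the scale of full transcript length, 3 of the 7 counted mitochondrial genes had higher levels than every nuclear member. Mean levels over the 6 libraries were 3824 CPM per kb for mt-Co1, the catalytic subunit of complex IV, 1533 for mt-Cytb, the cytochrome b of complex III, and 613 for mt-Nd1 of complex I. The other counted mitochondrial genes lay between 145 and 188 CPM per kb, below the highest nuclear members. On the same scale the highest nuclear members were Atp5f1b, the catalytic beta subunit of ATP synthase, at 325 CPM per kb, Ndufa4 at 235, Cox4i1 at 232, Cox6b1 at 206 and Atp5f1e at 205. With the whole level divided by kb of unshared windows instead, under the limit given above, Cox7c led them at 583, before Atp5f1b at 342 and Ndufa4 at 290. Cox7c had only 140 unshared windows. There mt-Nd4 stood at 517, below Cox7c but above every other nuclear member, and mt-Nd2, mt-Nd6 and mt-Nd5 at 210, 184 and 154. By full transcript length, the highest nuclear members of complex I were Ndufa6 at 85.1 and Ndufa7 at 77.3 CPM per kb. Those of complex II were Sdhd at 103 and Sdha at 31.2, and of complex III Uqcr10 at 140 and Uqcrb at 96.0.

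mt-Co1 made up most of the mitochondrial counts in every library. Its share of the counts of the 7 measured genes was 65.1, 68.1 and 67.0% in PBS and 66.7, 60.2 and 60.6% in TNF, with mt-Cytb second at 18.1 to 21.9%. Ratios of mitochondrial to nuclear member counts spread widely among the controls, at 1.70, 3.00 and 1.18 in PBS, against 1.88, 0.949 and 1.5 in TNF. The groups overlapped, and the 6 missing genes are not part of these sums.

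**Figure D2:**
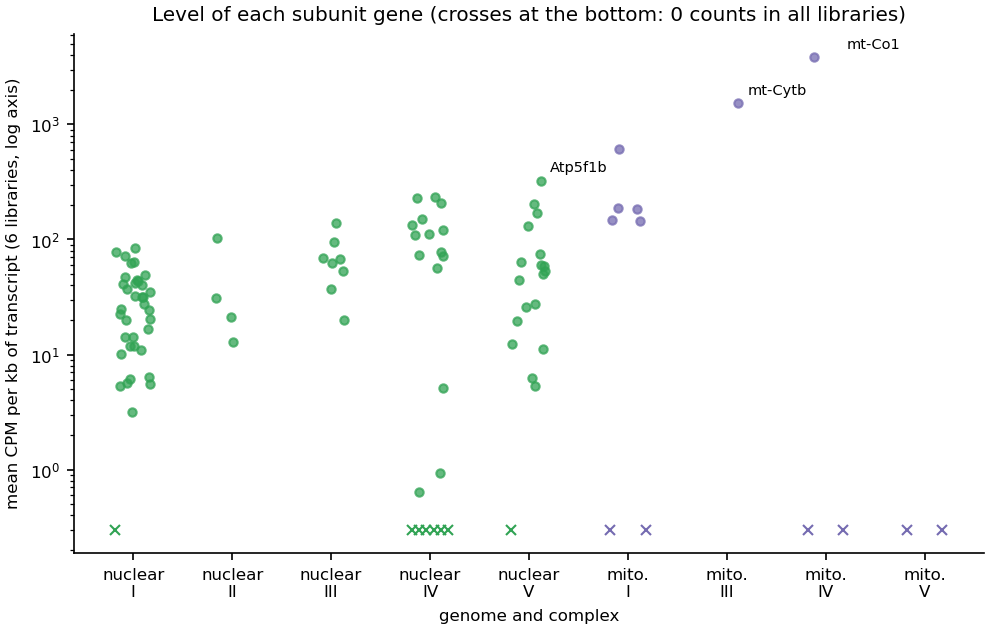
Mean level of each member over the 6 libraries, in CPM per kb of transcript on a log axis, by genome and complex. Each point is 1 gene, and crosses at the bottom mark the 14 members with 0 counts in every library. mt-Co1 and mt-Cytb lie above every nuclear member.

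Complex IV is the complex with the most tissue-restricted isoforms, and PCs carried the widely expressed form of each pair. Cox4i1, Cox6a1, Cox6b1, Cox7a2, Cox7b and Cox8a had means of 73.6 to 232 CPM per kb. Cox4i2 (known from lung), Cox6a2 and Cox8b (heart and skeletal muscle), Cox7b2 and Cox8c (testis) and Ndufa4l2, a hypoxia-responsive relative of Ndufa4, were at 0 in all libraries, which allows up to 0.147 to 0.255 CPM per library, taking 3 counts as the limit of counting error. No window of 100 bases of these 6 transcripts was shared. Cox6b2, known from testis, had 0 to 15 counts and Cox7a1, known from muscle, a mean of 5.14 CPM per kb. Cox7a1 measured 1.95, 1.74 and 5.51 CPM with PBS and 2.04, 0.929 and 1.45 CPM with TNF, with overlapping groups. AA467197, whose protein can take the place of Ndufa4 in complex IV, stood at 1.80, 2.00 and 2.65 CPM in PBS against 4.67, 2.45 and 1.21 CPM in TNF. The 2 further members at 0 were Ndufb11b and a second row with the symbol Atp5po, and Cox5b-ps had 0 to 17 counts. In all, 86 members passed the filter on low counts, 79 nuclear and 7 mitochondrial.

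The comparison of TNF with PBS asked how the PC transcriptome differed 15 h after injection. Over all 6 libraries no member was called: 0 of 86 passed 5% (edgeR quasi-likelihood test, Benjamini-Hochberg adjusted p under 0.05), and no gene of the 13026 tested did (0.00%), with a smallest adjusted p of 0.270. Nuclear members had mostly higher fitted values in TNF. Their median log2 fold change was 0.31 against -0.00 for all genes, and 65 of 79 had a positive value, against 50% of all genes. The 7 mitochondrial members had a median of 0.13 with 4 positive, and the difference between the nuclear and mitochondrial medians was not tested. With sample weights in limma-voom the order turned, at 0.17 for nuclear and 0.42 for mitochondrial members.

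At an unadjusted p under 0.05, 16 members were higher and 0 lower, all nuclear. That is 18.6% of those tested, beside 8.25% of all genes higher and 4.0% lower. All 3 TNF libraries lay above all 3 PBS libraries in 15 members, or 17.4%, and below them in 0, beside 9.07 and 7.82% of all genes. DESeq2 called 1.86% of all genes and 0 members.

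By complex, the median log2 fold change was 0.29 in complex I (27 of 36 positive), 0.14 in complex II (3 of 4), 0.34 in complex III (8 of 8), 0.46 in complex IV (12 of 13) and 0.24 in complex V (15 of 18). Within complex I, the 7 conserved core subunits of the nucleus, which bind the flavin and the iron-sulfur clusters, had a median of 0.05 with 4 positive. The 29 accessory subunits had 0.32 with 23 positive. When libraries were scaled by total counts alone, all genes shifted to a median of -0.11, and the nuclear members stood at 0.15, the mitochondrial ones at -0.05.

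The higher values came mostly from 1 library on the TMM scale, where the factors of the TNF libraries were 0.798, 1.20 and 0.916. By share of all counts, TNF replicate 2 was the highest library for nuclear members, at 0.574% against 0.551% in replicate 1. Taking each gene against its PBS mean, the median over the 79 nuclear members was 0.60 on the log2 scale in TNF replicate 1, -0.04 in replicate 2 and 0.24 in replicate 3, while the PBS libraries lay between -0.04 and 0.03. Complexes I, III, IV and V each repeated this order, with TNF replicate 1 highest and replicate 2 near the PBS level. The medians of the 7 mitochondrial members were 0.16, 0.59 and -0.75 in PBS and 0.65, -0.52 and 0.39 in TNF. Their order among the TNF libraries was that of the nuclear members, whereas the PBS libraries, close together for the nuclear members, were spread about as widely as the TNF libraries.

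Transcript length moved with these values. In TNF replicate 1 the median over all genes under 1 kb was 0.47, over genes of 1 to 2 kb 0.18, and over longer genes -0.06. Nuclear members stood at 0.72, 0.56 and 0.53 in the same length classes, and 38 of the 79 were under 1 kb. In TNF replicate 2 the nuclear members were at -0.10, -0.12 and 0.04. In the fit over all libraries, 63.4% of all genes under 1 kb had positive fold changes, 60.5% of those of 1 to 2 kb and 46.3% of longer ones. Among nuclear members these shares were 86.8, 76.2 and 80%. The part of transcript length in the result was not tested further.

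**Figure D3:**
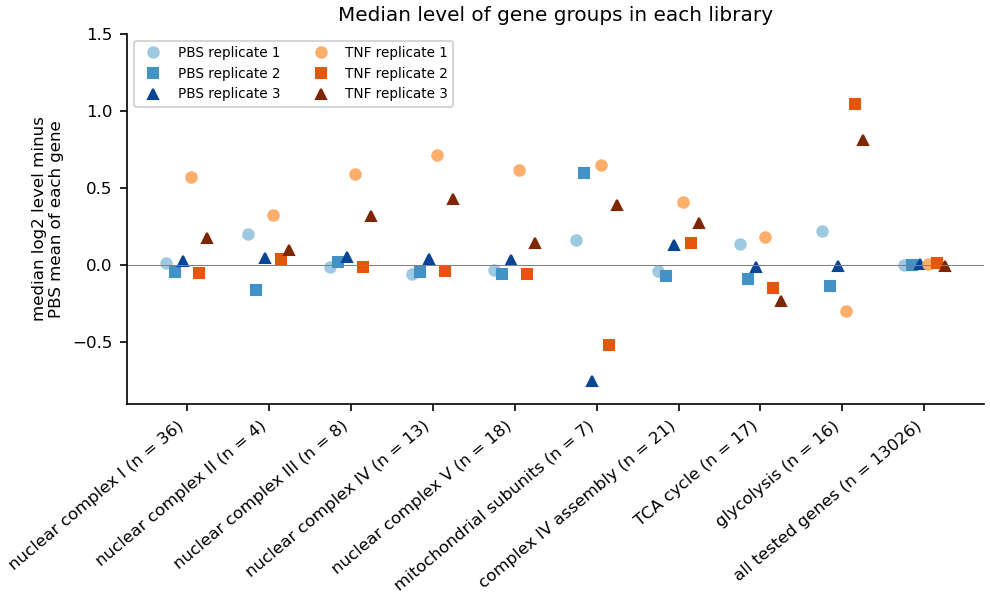
Median log2 level of gene groups in each library, each gene taken against its own PBS mean; n is the number of genes. TNF replicate 1 is the highest library for nuclear complexes I to V, whereas for glycolysis TNF replicates 2 and 3 stand at 1.05 and 0.81 and TNF replicate 1 at -0.30.

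Without TNF replicate 1, the remaining 5 libraries gave many calls across the genome, 9.10% of 13660 genes higher and 5.40% lower. Of the 86 members, 3 were called higher (3.49%) and 1 lower (1.16%), both shares below those backgrounds. The nuclear median was 0.09 with 47 of 79 positive, and the mitochondrial median -0.13 with 1 of 7 positive. Complex IV kept the highest median, 0.24, beside 0.07, 0.07, 0.09 and -0.03 in complexes I, II, III and V.

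**Figure D4:**
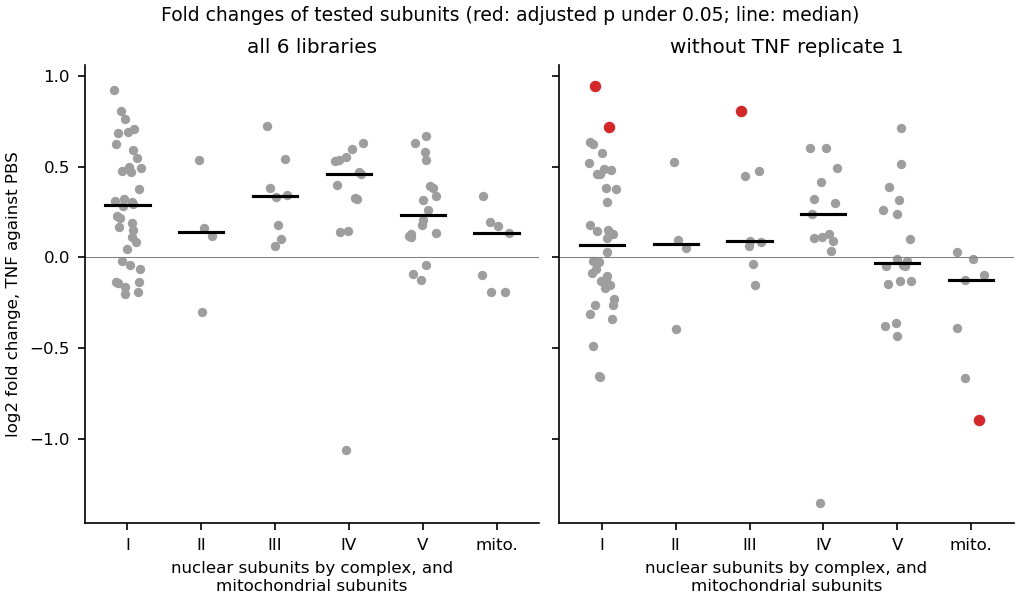
Log2 fold change of TNF against PBS for the 86 tested members, by complex for nuclear members and together for the 7 mitochondrial ones, over all 6 libraries and without TNF replicate 1. Each point is 1 gene, black lines are medians, and red points passed 5%; there are 0 red points on the left and 4 on the right.

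Ndufa6, an accessory subunit of complex I on the matrix side (chr15:82234340-82238523, minus strand, GRCm39), was one of the 3. It measured 39.9, 36.9 and 32.8 CPM in the PBS libraries and 52.6, 53.9 and 85.2 CPM in the TNF libraries. All TNF libraries were above all PBS libraries, and TNF replicate 3 was highest. The log2 fold change was 0.81 ± 0.24 (SE) over 6 libraries, with an adjusted p of 0.287, and 0.95 ± 0.22 without TNF replicate 1, with an adjusted p of 0.0168.

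Ndufa2, another accessory subunit of complex I, measured 31.5, 26.4 and 24.5 CPM with PBS and 45.4, 36.9 and 52.5 CPM with TNF. The groups did not overlap. The log2 fold change was 0.71 ± 0.21 over 6 libraries (adjusted p 0.290) and 0.72 ± 0.22 without TNF replicate 1 (adjusted p 0.0467). Uqcrq, a small subunit of complex III near the cytochrome b core (chr11:53318749-53322047, minus strand), measured 65.0, 86.1 and 82.8 CPM in PBS against 118, 107 and 162 CPM in TNF. Its TNF libraries were all above PBS as well, with log2 fold changes of 0.73 ± 0.24 (adjusted p 0.305) and 0.81 ± 0.23 without TNF replicate 1 (adjusted p 0.0407).

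The single member called lower was mt-Nd6, the only one of the 13 mitochondrial genes that lies on the minus strand (chrM:13552-14070). It measured 71.4, 107 and 69.0 CPM in PBS, 129 in TNF replicate 1, and 33.6 and 53.8 CPM in TNF replicates 2 and 3. TNF replicate 1 was the highest library and the other TNF libraries were the lowest, so the log2 fold change was -0.19 ± 0.44 over 6 libraries (adjusted p 0.887) and -0.90 ± 0.27 without that library (adjusted p 0.0467).

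mt-Co1 measured 5578, 9418 and 3916 CPM in the PBS libraries and 8684, 2736 and 5119 CPM in the TNF libraries. mt-Cytb measured 1555, 2603 and 1280 CPM with PBS and 2357, 987 and 1739 CPM with TNF. In both genes PBS replicate 2 and TNF replicate 1 were the highest libraries and TNF replicate 2 the lowest. Their log2 fold changes, -0.19 ± 0.52 and -0.10 ± 0.42, did not pass (adjusted p 0.905 and 0.941). mt-Nd1, mt-Nd2, mt-Nd4 and mt-Nd5 had 0.17, 0.34, 0.20 and 0.13, with adjusted p of 0.827 to 0.919. For these 4 genes the lowest library was PBS replicate 3, where mt-Nd2 had 53.6 CPM against 225 and 226 in the other PBS libraries, and each fold change turned negative when PBS replicate 3 was left out (-0.16, -0.12, -0.22 and -0.23).

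Among the nuclear members of complex I, Ndufa5 had the largest fitted change and Ndufv3 the most negative. Ndufa5 was low, at 5.27, 3.47 and 2.42 CPM in PBS against 10.7, 6.56 and 3.95 CPM in TNF, with a log2 fold change of 0.92 ± 0.46 (adjusted p 0.448). Ndufv3 measured 31.6, 27.8 and 26.3 CPM in the PBS libraries and 39.0, 19.3 and 16.3 CPM in the TNF libraries. Its TNF libraries lay on both sides of the PBS libraries, with -0.20 ± 0.32 (adjusted p 0.832). Ndufa7, second in level, had 0.31 ± 0.31 with overlapping groups (adjusted p 0.726).

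Complex II has only 4 genes, of which 3 had positive fold changes. Sdhd, one of its membrane anchors, measured 97.5, 105 and 115 CPM with PBS and 161, 128 and 174 CPM with TNF, without overlap, and its log2 fold change was 0.54 ± 0.22 (adjusted p 0.369). Sdha, the flavoprotein that oxidises succinate, measured 126, 88.8 and 102 CPM in PBS against 98.6, 85.6 and 73.0 CPM in TNF. The groups overlapped, with -0.30 ± 0.23 (adjusted p 0.615). Sdhc, the other anchor, had 0.12 ± 0.24 and Sdhb, the iron-sulfur subunit, 0.16 ± 0.19, both with overlapping groups. The count ratio of Sdha to Sdhd was 1.30, 0.843 and 0.886 in PBS and 0.613, 0.669 and 0.420 in TNF, lower in all TNF libraries. It was one of 3 such ratios between subunits, chosen after values were seen and not tested. The others overlapped between groups, Atp5f1a to Atp5pf at 15.1, 10.9 and 14.8 in PBS and 6.8, 12.6 and 6.88 in TNF, and Ndufv1 to Ndufa4 at 0.770, 0.499 and 0.417 in PBS and 0.313, 0.582 and 0.232 in TNF.

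In complex III all 8 nuclear members had positive fold changes over 6 libraries, from 0.06 for Uqcrc1 to 0.73 for Uqcrq, and 6 remained positive without TNF replicate 1. Uqcrb, which binds ubiquinone, had 0.55 ± 0.25 (adjusted p 0.415) and Uqcr10 0.35 ± 0.28 (adjusted p 0.648). Uqcrc1, a core protein, differed little, at 132, 99.7 and 104 CPM in the PBS libraries and 120, 120 and 111 CPM in the TNF libraries. Its fold change of 0.06 ± 0.21 turned to -0.03 with libraries scaled by total counts alone.

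In complex IV, 12 of 13 tested nuclear members had positive fold changes in both fits, Cox7a1 being the exception at -1.06 ± 0.63 (adjusted p 0.519). Cox5a measured 43.5, 41.4 and 51.4 CPM with PBS and 60.8, 67.3 and 69.3 CPM with TNF. Its groups did not overlap, and its log2 fold change was 0.53 ± 0.19 (adjusted p 0.330) and 0.61 ± 0.19 without TNF replicate 1 (adjusted p 0.0541). Cox7a2l, a relative of Cox7a2 of which C57BL/6 mice are known to carry a short variant, measured 64.6, 77.7 and 71.6 CPM in PBS against 110, 86.1 and 128 CPM in TNF, with 0.60 ± 0.22 (adjusted p 0.335). Cox7a2, whose groups overlapped, had 0.63 ± 0.26 (adjusted p 0.372).

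The nuclear complex IV genes with the highest levels per kb of transcript, Cox4i1 and Ndufa4, had their highest value in TNF replicate 1. Cox4i1 measured 149, 159 and 161 CPM in the PBS libraries and 256, 153 and 210 CPM in the TNF libraries, and Ndufa4 92.9, 97.7 and 114 CPM with PBS and 191, 82.4 and 169 CPM with TNF. In both, TNF replicate 2 stood within or below the PBS range. Their fold changes were 0.40 ± 0.25 (adjusted p 0.531) and 0.54 ± 0.31 (adjusted p 0.507). Cox6a1, Cox6b1, Cox7b and Cox8a had 0.14 to 0.46.

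Atp5f1b, the most abundant nuclear gene of complex V, measured 718, 590 and 594 CPM in PBS against 706, 632 and 512 CPM in TNF, a log2 fold change of -0.04 ± 0.26 (adjusted p 0.961). Atp5f1a, the alpha subunit of the head, had -0.09. Atp5mk, a small membrane subunit, measured 9.95, 11.3 and 13.6 CPM in the PBS libraries and 17.8, 16.4 and 21.3 CPM in the TNF libraries. Its groups did not overlap, and the log2 fold change was 0.67 ± 0.24 (adjusted p 0.326). Atp5pf, coupling factor 6 of the stalk, had 0.63 ± 0.25 (adjusted p 0.369), and Atp5f1e 0.38 ± 0.33 (adjusted p 0.671).

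The 3 subunit c genes differed in sign. Atp5mc3 measured 99.6, 96.1 and 121 CPM with PBS and 162, 127 and 171 CPM with TNF, without overlap, with 0.54 ± 0.22 (adjusted p 0.376). Atp5mc1 had -0.12 ± 0.30 and Atp5mc2 0.18 ± 0.26, both with many shared windows as given above. Atp5if1, the inhibitor that stops ATP synthase from running backwards, measured 44.9, 58.5 and 40.9 CPM in PBS against 83.0, 29.9 and 43.4 CPM in TNF, and its fold change was 0.11 ± 0.35 over 6 libraries and -0.38 without TNF replicate 1.

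**Figure D5:**
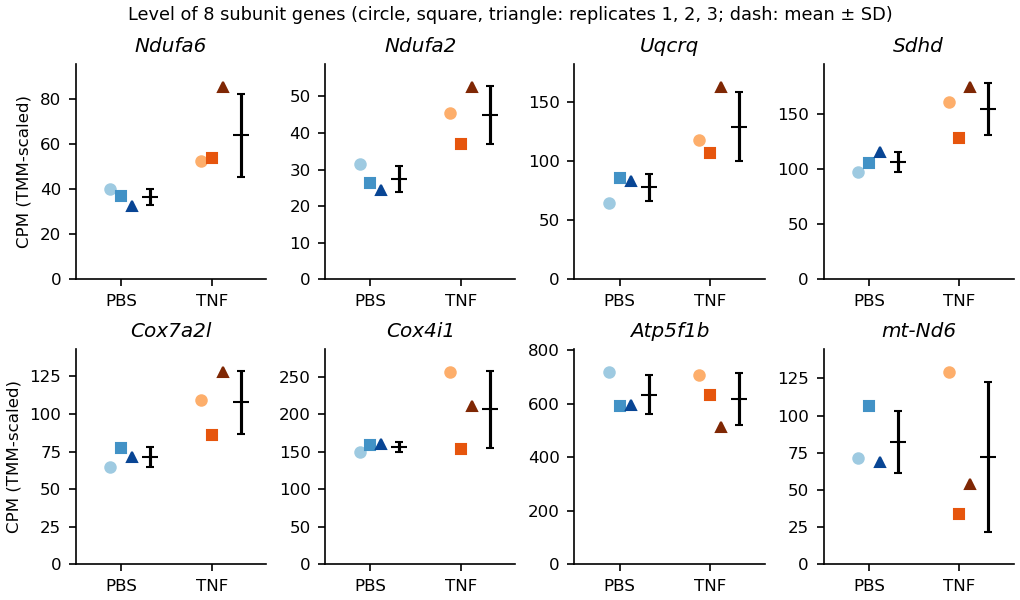
Level of 8 members in each library, in CPM scaled by TMM on axes that start at 0; circles, squares and triangles are replicates 1, 2 and 3, and dashes with bars are the mean ± SD (n = 3). The TNF libraries of Ndufa6, Ndufa2, Uqcrq, Sdhd and Cox7a2l all lie above PBS, while those of mt-Nd6 lie on both sides.

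As a share of all counts, the nuclear members took 0.483, 0.510 and 0.531% in PBS and 0.551, 0.574 and 0.515% in TNF, and the 7 counted mitochondrial genes 0.820, 1.53 and 0.624% in PBS and 1.04, 0.545 and 0.773% in TNF. Both overlapped between groups. With the genes above 1% taken out of the denominator, the nuclear shares became 1.13, 1.13 and 1.21% in PBS and 1.56, 1.07 and 1.25% in TNF, where TNF replicate 2 was the lowest library and not the highest.

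Promoters were examined for sequence that the members share. RefSeq promoters (build GRCm38.p6, 250 bases before to 50 after the start) matched 65 of the 79 tested nuclear members by symbol or synonym, and 9519 of all tested genes. Ndufa2 and Uqcrq, called higher without TNF replicate 1 like Ndufa6, had no matched promoter and could not be searched. The letters searched on both strands were CCGGAA, the core of ETS factors such as GABP, TGCGCA, a partial site of NRF1 that reads the same on both strands, and ATGGCGG, the core of YY1, all known regulators of respiratory genes. The ETS core was in 25 of 65 members (38.5%) and 29.4% of tested genes, the NRF1 site in 18 (27.7%) and 14.7%, and the YY1 core in 9 (13.8%) and 8.55%. At least 1 of the 3 was in 43 members (66.2%) and in 43.8% of tested genes; among all 27025 promoters of this length the shares were 15.2, 8.06 and 4.19% for the single motifs. A match is a description of letters and not of binding.

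Only the promoter of Ndufa9 held all 3 motifs, or 1 of 65 members (1.54%), beside 55 of 9519 tested genes (0.578%). It is shown with that of Ndufa6, the member with the smallest adjusted p above, which held 2 NRF1 sites. Motifs are in capitals, and both genes lie on the minus strand, so each sequence reads 5′ to 3′ along the gene.
Ndufa9, chr6:126849095-126849394: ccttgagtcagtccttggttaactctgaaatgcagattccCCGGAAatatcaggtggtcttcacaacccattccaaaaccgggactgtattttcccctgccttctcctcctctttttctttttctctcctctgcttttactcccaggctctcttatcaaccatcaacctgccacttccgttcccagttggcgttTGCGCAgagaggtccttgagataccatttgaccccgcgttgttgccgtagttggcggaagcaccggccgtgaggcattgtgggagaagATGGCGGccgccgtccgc
Ndufa6, chr15:82354242-82354541: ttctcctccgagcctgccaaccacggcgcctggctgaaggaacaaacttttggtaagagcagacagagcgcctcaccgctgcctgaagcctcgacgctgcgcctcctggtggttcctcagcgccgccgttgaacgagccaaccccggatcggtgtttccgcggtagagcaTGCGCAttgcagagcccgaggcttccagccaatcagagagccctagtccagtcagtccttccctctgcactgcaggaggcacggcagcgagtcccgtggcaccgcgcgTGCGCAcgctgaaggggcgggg
Ndufa9 measured 40.8, 36.6 and 50.6 CPM in the PBS libraries and 71.0, 43.0 and 36.2 CPM in the TNF libraries, with overlapping groups.

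Genes that build and supply the chain were read from lists that are not members, in the same fits. Over 6 libraries none of them passed 5% in the filtered edgeR fit. Complex I assembly factors had a median of 0.05 (9 of 15 positive), complex II, III and V assembly factors 0.11 (11 of 17) and complex IV assembly factors 0.25 (18 of 21). Subunits and electron carriers with other symbols had 0.38 (7 of 8), and mitochondrial transcription and translation -0.01 (8 of 16). Without TNF replicate 1, the calls in these 5 lists were 1 lower, 1 higher, 0, 1 higher and 0, beside 9.10% of all genes higher and 5.40% lower. Over 6 libraries other fits made calls too. DESeq2 called 1 gene higher among the complex II, III and V assembly factors and 1 among the mitophagy and stress genes, and 0 in the other lists, beside 1.86% of all genes. edgeR without the filter on low counts, which called 2.94% of all genes, called 1 higher in each of these 2 lists, 1 among the subunits and carriers and 6 in glycolysis.

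Sdhaf1, an assembly factor needed for the iron-sulfur subunit of complex II, was the assembly gene called higher without TNF replicate 1. It measured 13.1, 9.08 and 11.0 CPM with PBS and 20.2, 38.7 and 60.7 CPM with TNF, with 1.85 ± 0.37 over 6 libraries (adjusted p 0.270) and 2.19 without TNF replicate 1. Etfdh, which feeds electrons from fatty acid oxidation to ubiquinone, measured 32.2, 27.5 and 32.5 CPM in PBS against 31.6, 73.7 and 71.3 CPM in TNF, where TNF replicate 1 stood within the PBS range. Timmdc1, a complex I assembly factor, measured 30.4, 27.8 and 35.5 CPM in the PBS libraries and 29.7, 12.2 and 13.8 CPM in the TNF libraries, and was the one called lower. In these 3 genes TNF replicate 1 was nearer to PBS than the other TNF libraries were.

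The 2 genes with the smallest p in each remaining list were Ndufaf4 (0.47 ± 0.22) beside Timmdc1, Uqcc6 (0.65 ± 0.41) beside Sdhaf1, Cmc1 (0.95 ± 0.30) and Coa6 (0.76 ± 0.35), Cycs, the cytochrome c gene (0.51 ± 0.21), beside Etfdh, and Slirp (0.90 ± 0.29) and Tufm (-0.49 ± 0.22). Slirp, a partner of Lrpprc in keeping mitochondrial mRNAs stable, measured 9.23, 10.3 and 11.2 CPM with PBS and 23.8, 11.9 and 21.9 CPM with TNF. None of these passed 5% in the filtered edgeR fit over 6 libraries.

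Regulators of nuclear respiratory genes had a median of 0.12 with 7 of 11 positive, and without TNF replicate 1 3 were called higher (Hif1a, Higd1a and Esrra) and 1 lower (Pprc1), beside 9.10% of all genes higher and 5.40% lower. Higd1a, a small hypoxia-induced partner of complex IV, measured 8.15, 5.74 and 8.08 CPM in PBS against 9.60, 15.6 and 15.4 CPM in TNF. Pprc1, a coactivator of the PGC-1 family, measured 46.9, 41.2 and 34.2 CPM in the PBS libraries and 33.8, 20.5 and 21.3 CPM in the TNF libraries. The groups did not overlap in either gene. Nrf1, Gabpa and Yy1, whose motifs were searched above, had -0.43, -0.38 and 0.21 and passed 5% in neither edgeR fit.

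Neighbouring pathways of fuel use were read in the same way, and differences between these lists and the chain were not tested. Tricarboxylic acid cycle genes had a median of -0.03 with 8 of 17 positive and 0 calls in either edgeR fit, Ogdh (-0.47 ± 0.22) and Dlst (0.44 ± 0.21) having the smallest p. Glycolysis genes had a median of 0.71 with 14 of 16 positive, and without TNF replicate 1 a median of 1.00 with 9 called higher, 56.2% beside the 9.10% of all genes. The 9 were Hk1, Aldoa, Gapdh, Pgk1, Pgam1, Eno1, Pkm, Ldha and Pdk4. Against the PBS mean, the glycolysis median was -0.30 in TNF replicate 1 and 1.05 and 0.81 in TNF replicates 2 and 3. Leaving out TNF replicate 1, a choice made on these same data, thus favoured such calls in advance.

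Pgk1, which makes ATP in glycolysis, measured 36.3, 29.8 and 29.1 CPM with PBS and 37.4, 72.4 and 72.3 CPM with TNF, with 0.94 ± 0.28 over 6 libraries (adjusted p 0.283). Pdk4, the kinase that shuts pyruvate dehydrogenase, measured 2.60, 3.00 and 0.220 CPM in PBS against 1.27, 27.3 and 30.4 CPM in TNF, with 3.33 ± 1.03 (adjusted p 0.297). In both, TNF replicate 1 stood with the PBS libraries or just above them. The per-library medians of glycolysis were high in TNF replicates 2 and 3, and those of the nuclear subunits in TNF replicates 1 and 3.

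Mitophagy and mitochondrial stress genes had a median of 0.04 with 8 of 13 positive. Without TNF replicate 1, 2 were called higher, Atf5, a transcription factor of the mitochondrial unfolded protein response, and Bnip3l, a mitophagy receptor. That is 2 of 13 genes, beside 9.10% of all genes. Atf5 measured 7.14, 4.81 and 5.14 CPM in the PBS libraries and 7.99, 19.4 and 21.3 CPM in the TNF libraries, and Bnip3l 39.2, 45.4 and 55.1 CPM with PBS and 61.7, 72.8 and 88.3 CPM with TNF. All TNF libraries were above all PBS libraries in both genes. In the filtered edgeR fit over 6 libraries neither passed 5% (adjusted p 0.270 and 0.308), and the calls of other fits in this list are given above.

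With libraries weighted by quality in limma-voom, 11.5% of all genes and 5 of the 86 members were called, all 5 higher. These were Ndufa6 (adjusted p 0.0142), Ndufa2 (0.0203), Uqcrq (0.0292), Ndufb8 (0.0438) and Cox7a2l (0.0488). Ndufb8, an accessory subunit of complex I, measured 36.2, 39.4 and 37.5 CPM in PBS against 72.2, 44.9 and 66.2 CPM in TNF, without overlap. The 3 members called higher without TNF replicate 1 were among these 5, whereas mt-Nd6 was not. In the other lists these weights gave 7 calls higher in glycolysis, 2 in mitophagy and stress, 1 each in the complex II, III and V assembly factors, the subunits and carriers, and the regulators, and 1 call lower each in the complex I assembly factors and the regulators.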

How the data were processed

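PCs from 3 PBS and 3 TNF mice were sequenced as total RNA with single-end reads. The deposited table held raw counts per gene, and the submitters' processing notes name FastQC, Trimmomatic 0.39, STAR 2.7.10a, DESeq2 and the build mm39. For the counting tool, annotation release, strand setting and reads that fit several places, the choices are not stated in the labels. Symbols, positions and lengths of the canonical transcript came from GENCODE vM39 on GRCm39; 54742 of 55414 identifiers matched. In R 4.3.3, genes were filtered with filterByExpr (minimum count 10, minimum total 15), scaled by TMM and tested two-sided with edgeR 4.0.16 (quasi-likelihood, group only, Benjamini-Hochberg over all genes). The fit was also run on simulated data, with changes larger than those of the members and the same variability setting for all genes. That run does not show how well changes of the size seen here would be found. Alternatives used limma 3.58.1 and DESeq2 1.42.0. Per-library medians used log2(CPM + 0.5). Shared windows were exact matches on either strand of GRCm39 outside the gene, and the chromosome 1 copy was aligned with blastn.

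Named were all mitochondrial members, per complex the 2 highest levels, the extreme fold changes and the 2 smallest p, members called without TNF replicate 1, members that failed the filter, isoform pairs, and the 2 smallest p of each other list. Ndufa9, Ndufb8, Ndufs5, Atp5f1a, Atp5mg, Cox7c, Sdhb, Sdhc, Ndufv1, Nrf1, Gabpa, Yy1 and the list genes called only without TNF replicate 1 were added after values were seen. The members and lists were chosen with earlier results of these data known.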

Additional observations from a re-analysis of the deposited data

How the results depend on the processing

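Over 16 alternative fits the count of members passing 5% was 0 except for 4 without TNF replicate 1 (0 to 4 over the 6 fits that left out 1 library each) and 5 with sample weights in limma-voom. The count of all genes, 0 in the edgeR fit, was 690 with no filter on low counts, 242 with DESeq2, 1501 with sample weights, and 0 to 1980 with 1 library left out, the 1980 being without TNF replicate 1. Leaving out 1 library gave medians of 0.09 to 0.44 for nuclear members, -0.23 to 0.44 for mitochondrial members, 0.088 to 0.42 for complex III and -0.031 to 0.41 for complex V. The TNF minus PBS difference in the nuclear share of counts was 0.0386 percentage points, and 0.140 with genes above 1% left out of the denominator; that in the mitochondrial share was -0.21 and became 0.06 without PBS replicate 2. Each cause was not tested.

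Same-numbered deviations from the group means correlated at -0.01, -0.09 and 0.06, and differently numbered ones at -0.08 to 0.08. These values gave no sign that replicate numbers pair the libraries, though with so few libraries a weak pairing might not show. With the replicate block 0 genes and 0 members passed 5%, and the nuclear median was 0.28.

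Of 568 alternative values for 36 single genes, 529 kept direction and side of the threshold, 8 newly passed and 31 changed sign. The signs that changed were those of Uqcrc1 (-0.032), mt-Nd1 (-0.014), mt-Nd5 (-0.053) and Atp5if1 (-0.096) with library size alone, Atp5if1 with limma-voom (-0.0010), and Atp5if1 (-0.15) and Atp5mc2 (-0.036) with sample weights. With 1 library left out, the sign changed at some point in Atp5f1b (-0.13 to 0.081), Atp5mc1 (-0.36 to 0.046), Uqcrc1 (-0.031 to 0.20), mt-Nd6 (-0.90 to 0.12), mt-Cytb (-0.39 to 0.25), mt-Co1 (-0.66 to 0.21), mt-Nd1 (-0.16 to 0.50), mt-Nd2 (-0.12 to 0.61), mt-Nd4 (-0.22 to 0.54), mt-Nd5 (-0.23 to 0.44), Atp5if1 (-0.38 to 0.36), Atp5f1e (-0.022 to 0.62), Atp5mc2 (-0.011 to 0.38) and Ndufv3 (-0.66 to 0.031). At these depths, members under about 10 counts per library could not be tested.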
